A study of Mus musculus with 7 samples.

Results

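Notch pathway genes were read in mouse colon adenoma cells that have switched on the Mex3a promoter, in arrays whose genotype label is WT or KO. MEX3A is an RNA-binding protein of intestinal stem and progenitor cells. The 34 genes were chosen by symbol, as receptors, ligands, enzymes that modify or cleave the receptor, nuclear partners, inhibitors and target factors. Of these, 31 were represented by 52 probe sets that the platform annotation pairs with 1 gene, out of 17097 genes and 28898 such probe sets. Jag2, Maml2 and Maml3 had no such probe set and were not analysed here. Of the 31, 25 lay above a filter that left out the lowest 25% of genes (mean log2 level under 5.28) and 6 lay under it (Notch4, Hes2, Hes3, Hes5, Hes7 and Hey2). The filter used the mean over all arrays, so it made no use of genotype.

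The series holds 7 arrays, 4 labelled WT and 3 labelled KO. Per the series' design text, every animal carried a Tomato reporter allele of Mex3a (tom), Villin CreERT2, which is a tamoxifen-inducible Cre of the gut epithelium, and APC fl/+. The second Mex3a allele was either floxed (tom/flox) or wild-type (Tom/+), so that adenomas of both genotypes carried the floxed Apc allele and the reporter in 1 Mex3a allele. The labels give each array only as KO or WT and do not say which of these allele pairs it had. All animals received 4 doses of tamoxifen and then 2% DSS (dextran sulfate sodium, which injures the colon lining) for 5 days, and adenomas were taken 2 months after DSS ended. Cells positive for Epcam and Tomato were sorted, and RNA of 2000 cells was amplified over 24 cycles. The sources used here give no ages. The labels do not state whether arrays are separate animals, and p-values therefore cover the spread among these 7 samples, part of which may be technical. The labels place 2 WT arrays and 1 KO array in scan batch 1, and 2 of each in scan batch 2. Array medians ranged from 5.96 to 6.00 on the log2 scale, and the number of arrays limits the precision.

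Notch signalling passes between touching cells. A Delta or Jagged ligand on one cell pulls on a Notch receptor on its neighbour, ADAM proteases and then gamma-secretase cut the receptor, and its freed intracellular part joins RBPJ and a Mastermind protein on DNA to switch on Hes and Hey genes. In the intestinal crypt this signal keeps progenitors dividing and steers them to the absorptive fate, because HES1 represses Atoh1, the factor that starts the secretory lineage, whose early cells display Dll1 and Dll4.

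RBPJ, the DNA-binding partner of the cleaved receptor, recognises a short core, and the promoters below show where that core occurs among genes of the pathway itself. The letters searched were GTGGGAA, on both strands, in RefSeq windows of GRCm38.p6 that reach from 250 bases before to 50 bases after each start. Windows were found for 28 of the 34 genes, 36 windows in all. Hes1, Hes2, Hes3, Hey1, Heyl and Mfng had no window, so their promoters were not searched. The letters occurred in 6 of these 36 windows (Hes5, Hes7, Hey2, Lfng, Psen2 and Aph1a), or 16.7%, against 6.38% of all 32851 windows. The 3 Hes and Hey factors and Lfng, a gene that Notch switches on in the segmenting embryo, are printed to 20 bases past the start, with the matching letters in capitals (a match on the other strand reads TTCCCAC). Hes5 lies on the plus strand at chr4:154960673-154960942, Hes7 on the plus strand at chr11:69120203-69120472, Hey2 on the minus strand at chr10:30842764-30843033 and Lfng on the plus strand at chr5:140607091-140607360. A match describes the letters and is no measurement of binding.
Hes5: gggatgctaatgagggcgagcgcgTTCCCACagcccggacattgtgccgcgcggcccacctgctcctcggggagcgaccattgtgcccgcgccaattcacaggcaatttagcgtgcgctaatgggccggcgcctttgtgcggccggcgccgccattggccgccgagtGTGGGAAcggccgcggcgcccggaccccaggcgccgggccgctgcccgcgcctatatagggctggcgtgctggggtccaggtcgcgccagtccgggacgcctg
Hes7: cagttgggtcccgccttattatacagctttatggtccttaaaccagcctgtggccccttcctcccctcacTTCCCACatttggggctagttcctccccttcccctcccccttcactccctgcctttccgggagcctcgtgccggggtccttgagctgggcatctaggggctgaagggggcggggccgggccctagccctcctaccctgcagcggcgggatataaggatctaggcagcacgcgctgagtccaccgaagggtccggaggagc
Hey2: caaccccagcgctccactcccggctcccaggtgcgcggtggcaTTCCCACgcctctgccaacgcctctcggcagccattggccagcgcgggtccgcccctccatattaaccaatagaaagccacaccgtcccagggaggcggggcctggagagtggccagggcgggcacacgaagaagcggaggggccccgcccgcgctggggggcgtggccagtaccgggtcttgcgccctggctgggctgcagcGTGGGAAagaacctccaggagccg
Lfng: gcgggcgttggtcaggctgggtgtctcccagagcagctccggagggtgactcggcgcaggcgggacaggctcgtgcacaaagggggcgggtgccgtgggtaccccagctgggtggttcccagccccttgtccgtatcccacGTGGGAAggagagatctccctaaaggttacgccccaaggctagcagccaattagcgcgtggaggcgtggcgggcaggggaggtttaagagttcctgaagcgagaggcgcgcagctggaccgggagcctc

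Of those 4 genes only Lfng was above the level filter, and its KO and WT arrays overlapped. Hes5, which holds the letters 83 and 226 bases before its start, read 4.61, 4.53, 4.66 and 4.66 in the WT arrays and 4.69, 4.66 and 4.65 in the KO arrays on the log2 scale. Hes7 spanned 4.84 to 5.33 over all 7 arrays, and Hey2 4.21 to 4.32. The means of these 3 factors lie among the lowest 25% of genes, so they were not among the 25 tested genes. Of their single values only Hes7 passed the filter level, in 1 array of each genotype (WT replicate 4 read 5.32, and KO replicate 3 read 5.33).

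Mex3a itself, which checks the labels, read 7.41, 7.38, 7.50 and 7.01 in WT against 6.18, 6.29 and 6.07 in KO, a log2 difference of -1.13 (SE 0.13; limma, adjusted p = 0.142). Its KO levels thus stayed above the filter level, and the sources used here do not say where its probe sets lie relative to the deleted part. Over all arrays, every tested Notch pathway gene had a smaller difference than Mex3a. Of the 25 tested, 0 passed an adjusted p of 0.05 in limma, as did 0 of all 12822 genes (0% called). The members' smallest adjusted p was 0.414. At an unadjusted p under 0.05 there were 3 members higher in KO (Psenen, Rbpj and Numb), where the background over all genes was 7.14%, and 1 lower (Rfng), where the background was 4.26%. Together these 4 are 16% of the tested members against 11.4% of all genes. The genotypes were fully separated for 2 members higher in KO (Notch3 and Psenen; background 2.68%) and 1 lower (Adam17; background 3.23%), or 3 of 25 against 5.91% of all genes. Of the 25, 14 had a positive difference, as did 43.9% of all genes. The median log2 difference of the members was 0.036, against -0.019 over all genes. Their median size regardless of sign was 0.085, against 0.094. The 6 members under the filter, read in a fit over all probe sets, held 0 at an unadjusted p under 0.05, against 9.39% of all probe sets.

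**Figure D1:**
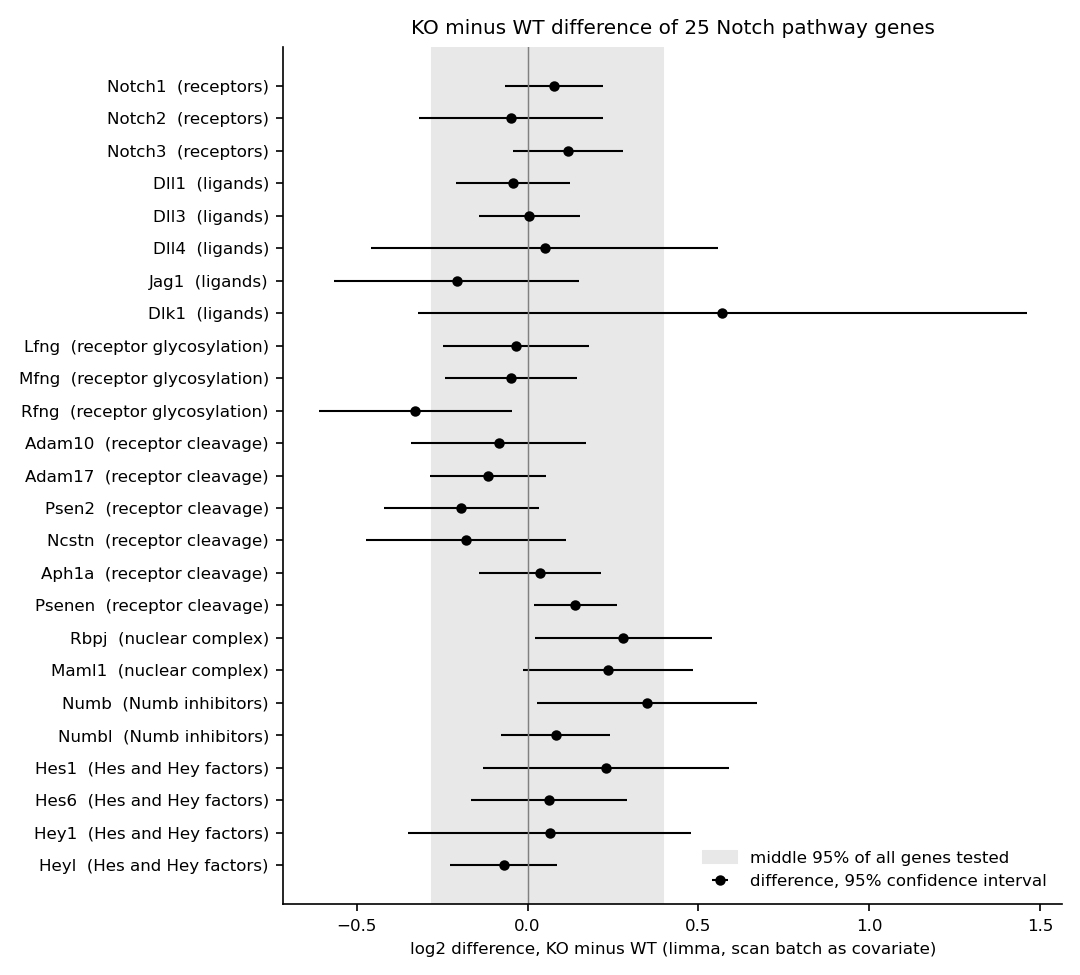
Log2 difference, KO minus WT, of the 25 tested Notch pathway genes (x axis), listed by role (y axis), from limma with scan batch as covariate; points are estimates, lines 95% confidence intervals, and the grey band holds the middle 95% of all 12822 genes (-0.28 to 0.40). Only the intervals of Rfng, Psenen, Rbpj and Numb leave out 0, and Dlk1 at 0.57 has the widest interval.

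Among the receptors, Notch1 and Notch2, the pair that works in intestinal progenitors, did not differ between genotypes beyond the spread. Notch1 read 10.65, 10.80, 10.60 and 10.55 in WT against 10.77, 10.69 and 10.64 in KO. Its log2 difference was 0.078 (SE 0.062), with a 95% confidence interval from -0.066 to 0.22. Notch2 read 9.23, 8.95, 9.48 and 9.27 in WT against 9.24, 9.24 and 9.14 in KO, so that the KO arrays lay inside the WT range. Its difference was -0.049 (SE 0.12).

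Notch3, a receptor best known from the muscle-like cells around blood vessels, was the 1 receptor whose groups did not overlap. It read 5.68, 5.81, 5.78 and 5.82 in WT against 5.99, 5.84 and 5.84 in KO. The gap was narrow: KO replicates 2 and 3 lay just above the highest WT array, and KO replicate 1 stood apart. The difference was 0.12 (SE 0.069), a two-sided exact permutation over 35 splits of the arrays gave p = 0.0286, its lowest possible value, and the limma adjusted p over all genes was 0.529. Within scan batches only 18 splits exist, with a smallest possible p of 0.0556, so a permutation that keeps the batches apart could not fall under 0.05. Without KO replicate 1 the difference was 0.038 (SE 0.076). The other Notch3 probe set overlapped between the groups (-0.017, SE 0.097). Cells of vessel walls should be left out by the sort for Epcam and Tomato, and their markers were read as a check. Rgs5, a pericyte marker, read 6.24, 5.66, 6.72 and 5.83 in WT against 6.66, 6.98 and 6.82 in KO, while Pdgfrb, the receptor that defines pericytes, was at 6.10 ± 0.09 (SD, n = 4) in WT against 6.07 ± 0.09 (SD, n = 3) in KO. Of the 10 genes in the list of pericyte and smooth muscle markers 7 were on the array, 6 above the filter, and their mean log2 level was 5.94 to 6.28 in WT against 6.03 to 6.35 in KO. Their part in the Notch3 values was not tested. Notch4, a receptor of endothelium, lay under the filter at 4.93 to 5.40 in WT against 4.89 to 5.55 in KO.

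**Figure D2:**
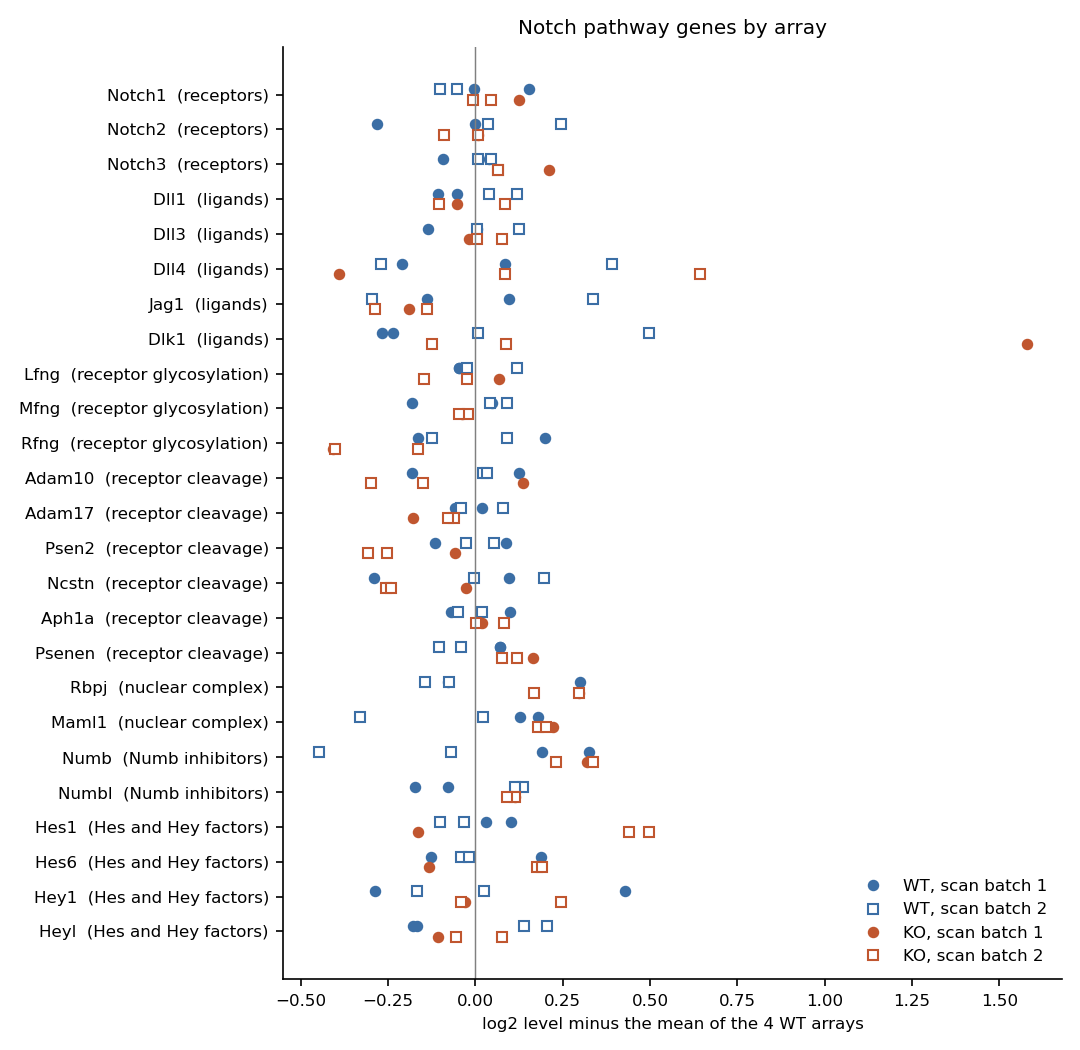
Log2 level of each tested gene in each array, as the distance from the mean of the 4 WT arrays (x axis), with genes by role on the y axis; blue marks WT, orange KO, filled circles scan batch 1 and open squares scan batch 2. KO and WT points intermix for most genes, the 2 KO arrays of scan batch 2 stand right of every WT array for Hes1, and 1 KO array of scan batch 1 stands alone for Dlk1.

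On the probe sets of highest mean level the ligands held the 2 most variable members, Dlk1 and Dll4, and no ligand was separated by genotype. Dll1, the Delta ligand of secretory precursors, was at 6.01 ± 0.10 (SD, n = 4) in WT against 5.99 ± 0.10 (SD, n = 3) in KO, with a difference of -0.042 (SE 0.072). Dll4, which acts beside Dll1 in the crypt and in sprouting vessels, read 6.73, 7.02, 7.33 and 6.67 in WT against 6.54, 7.02 and 7.58 in KO. KO replicate 1 was the lowest and KO replicate 3 the highest of all 7 arrays, so that the KO arrays spanned the WT range on both sides. The spread of Dll4 within groups, an SD of 0.403, was above that of 98.1% of tested genes. Its difference was 0.050 (SE 0.22), with a 95% confidence interval from -0.46 to 0.56. On its other probe set Dll4 read 6.07, 6.26, 6.36 and 6.34 in WT against 6.28, 6.41 and 6.47 in KO. There the difference was 0.097 (SE 0.076), the SD was 0.13 in WT and 0.094 in KO, and WT replicate 1 was lowest.

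Dll4 is also an endothelial gene, and endothelial markers were read beside it, although the sort for Epcam and Tomato should leave endothelium out. Pecam1, which defines endothelium, was at 6.21 ± 0.05 (SD, n = 4) in WT against 6.26 ± 0.11 (SD, n = 3) in KO. Cdh5, the cadherin of endothelial junctions, was lower in every KO array, at 6.05, 6.17 and 6.11 against 6.42, 6.48, 6.73 and 6.38 in WT (limma, adjusted p = 0.353). Of 14 endothelial markers all were on the array and 9 above the filter, and their mean log2 level was 5.78 to 5.85 in WT against 5.69 to 5.80 in KO. KO replicate 3, with the highest Dll4, had the lowest endothelial mean (5.69). KO replicate 1, with the lowest Dll4, had the next lowest (5.74). The part of these cells in the Dll4 values was not tested. In such sorted bulk samples, fewer cells of a type and less RNA per cell cannot be told apart.

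Jag1, the Jagged ligand and itself a target of Wnt and Notch signalling, read 8.28, 8.05, 8.52 and 7.89 in WT against 8.00, 8.05 and 7.90 in KO. The KO arrays clustered at the lower end of the WT range. The difference was -0.21 (SE 0.16), and it ranged from -0.043 without WT replicate 3, the highest array, to -0.36 (SE 0.13; limma, unadjusted p = 0.0332, adjusted p = 0.547) without WT replicate 4, the lowest. With a weight for each array it was -0.37 (SE 0.14; limma, unadjusted p = 0.0264, adjusted p = 0.108). Dll3, a ligand that blocks Notch from within the cell, was at 5.53 ± 0.11 (SD, n = 4) in WT against 5.55 ± 0.05 (SD, n = 3) in KO.

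Dlk1, a membrane protein related to the Delta ligands that lacks their receptor-binding domain, had the largest difference of all members, and it came from 1 array. It read 5.77, 5.81, 6.54 and 6.05 in WT against 7.62, 5.92 and 6.13 in KO. KO replicate 1 stood alone, while the other KO arrays lay within the WT range. The log2 difference was 0.57 (SE 0.39; limma, adjusted p = 0.565) over all arrays and -0.27 without KO replicate 1, the only KO array of scan batch 1. With a control measure of Gapdh, described further on, as covariate it was 1.17 (SE 0.35; limma, unadjusted p = 0.0112, adjusted p = 0.551). Dlk1 was the 1 member with a difference over 0.5 in size, against 1.27% of all genes.

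The 3 Fringe enzymes add a sugar to the receptor and so shift which ligands it answers to. All had negative differences, though that of Lfng turned with its other probe set and under settings given at the end, and Rfng had the smallest p of any member. Rfng read 9.54, 9.18, 9.43 and 9.22 in WT against 8.94, 9.18 and 8.94 in KO. KO replicates 1 and 3 lay below every WT array, and KO replicate 2 lay level with the lowest WT array. The difference was -0.33 (SE 0.12), a 1.26-fold lower level (limma, unadjusted p = 0.0276, adjusted p = 0.414; two-sided exact permutation p = 0.0857). Its other probe set gave 0.13 (SE 0.13), and the mean of both -0.098, so the Rfng difference was carried by 1 probe set. Lfng, at 9.04 ± 0.08 (SD, n = 4) in WT against 9.00 ± 0.11 (SD, n = 3) in KO, and Mfng, at 6.82 ± 0.12 and 6.79 ± 0.01 (SD, same n), differed by -0.033 (SE 0.093) and -0.048 (SE 0.083).

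Both ADAM proteases that cut the receptor had negative differences. Adam10, the protease that makes the first ligand-induced cut, read 10.87, 10.56, 10.77 and 10.78 in WT against 10.88, 10.45 and 10.59 in KO, a difference of -0.085 (SE 0.11). Single arrays moved it from -0.0058 without KO replicate 2, its lowest array, to -0.25 (SE 0.11) without KO replicate 1, its highest. In scan batch 2 it was -0.25 (SE 0.070; limma, unadjusted p = 0.0170, adjusted p = 0.137) and in scan batch 1 0.17 (SE 0.19). On another Adam10 probe set KO replicate 1 was instead the lowest array, at 10.22, and the difference was -0.15 (SE 0.079). There it was -0.32 in scan batch 1 and -0.038 in scan batch 2. A further Adam10 probe set gave -0.019 (SE 0.075). Adam17, which also sheds growth factors and tumour necrosis factor, read 9.73, 9.66, 9.79 and 9.67 in WT against 9.54, 9.65 and 9.64 in KO. All KO arrays of Adam17 lay below all WT arrays, though KO replicate 2 and WT replicate 2 differed by less than 0.01. The difference was -0.12 (SE 0.073; two-sided exact permutation p = 0.0571; limma, adjusted p = 0.551). The 2 other Adam17 probe sets overlapped between the groups and gave -0.013 (SE 0.091) and 0.17 (SE 0.11).

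Gamma-secretase, which makes the final cut, is an assembly of a presenilin, nicastrin, APH1 and PEN2, encoded here by Psen2, Ncstn, Aph1a and Psenen. Psenen was the steadiest of the members with an unadjusted p under 0.05. It read 10.87, 10.87, 10.70 and 10.76 in WT against 10.96, 10.92 and 10.88 in KO. Every KO array lay above every WT array, but KO replicate 3 exceeded the highest WT arrays by less than 0.01. The difference was 0.14 (SE 0.053), a 1.10-fold higher level (limma, unadjusted p = 0.0299, adjusted p = 0.414; two-sided exact permutation p = 0.114), and it was 0.12 to 0.17 with 1 array left out.

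Psen2 and Ncstn had differences of the opposite sign to Psenen. Psen2, the catalytic subunit, read 8.55, 8.35, 8.52 and 8.44 in WT against 8.41, 8.16 and 8.21 in KO. KO replicates 2 and 3 lay below every WT array and KO replicate 1 inside the WT range. The difference was -0.19 (SE 0.098; limma, adjusted p = 0.471). Ncstn, the subunit that takes in the substrate, read 10.35, 9.96, 10.45 and 10.25 in WT against 10.23, 10.00 and 10.01 in KO, a difference of -0.18 (SE 0.13), with WT replicate 2 the lowest of all arrays. With 1 array left out, the Ncstn difference was -0.35 to -0.088. The other Ncstn probe set, at a lower level, overlapped between the groups and gave 0.047 (SE 0.079). Aph1a, the scaffold subunit, was at 6.78 ± 0.08 (SD, n = 4) in WT against 6.81 ± 0.04 (SD, n = 3) in KO. The difference of 0.036 was 0.010 to 0.067 with 1 array left out. The other Aph1a probe sets overlapped between the groups and gave 0.21 (SE 0.12) and 0.12 (SE 0.081), with KO SDs of 0.21 and 0.17.

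Rbpj and Maml1, which form the DNA-bound complex with the cleaved receptor, both had positive differences. Rbpj read 7.51, 7.88, 7.51 and 7.44 in WT against 7.88, 7.75 and 7.88 in KO. WT replicates 1, 3 and 4 lay close together below all KO arrays, and WT replicate 2 lay among the KO arrays. The difference was 0.28 (SE 0.11), a 1.21-fold higher level (limma, unadjusted p = 0.0372, adjusted p = 0.421; two-sided exact permutation p = 0.143). Without WT replicate 2 it was 0.35 (SE 0.084; adjusted p = 0.124). The other Rbpj probe set gave 0.033 (SE 0.11).

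Maml1, the Mastermind co-activator, read 6.91, 6.86, 6.40 and 6.76 in WT against 6.96, 6.91 and 6.94 in KO. The KO arrays were tight and level with the highest WT array, and WT replicate 3 lay well below the rest. The difference was 0.23 (SE 0.11; limma, adjusted p = 0.448) and 0.12 without WT replicate 3. Its other probe set gave -0.021 (SE 0.064).

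Numb and Numbl encode adaptors that hold Notch back by sending the receptor for endocytosis and breakdown. Numb read 8.35, 8.49, 7.71 and 8.09 in WT against 8.48, 8.39 and 8.50 in KO. As for Maml1, the KO arrays were tight at the top of the WT range and WT replicate 3 was the lowest. The difference was 0.35 (SE 0.14), a 1.27-fold higher level (limma, unadjusted p = 0.0371, adjusted p = 0.420; two-sided exact permutation p = 0.229). It was 0.21 without WT replicate 3, and the other Numb probe set gave 0.014 (SE 0.22). Numbl, the Numb-like paralog, was at 5.31 ± 0.15 (SD, n = 4) in WT against 5.42 ± 0.01 (SD, n = 3) in KO.

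WT replicate 2, which lay with the KO arrays for Rbpj, also lay with them in a control measure. A common gauge of RNA quality, the 3' minus the 5' control probe set of Gapdh in log2 units, was -0.209 in WT replicate 2 and -0.154, -0.213 and -0.239 in KO, against -0.131, -0.121 and -0.121 in the other WT arrays. The same measure of beta-actin did not group the arrays this way, at -0.485, -0.429, -0.497 and -0.448 in WT against -0.301, -0.515 and -0.446 in KO, with KO arrays at both ends. With the Gapdh measure as a further covariate the differences were 0.13 (SE 0.11) for Rbpj, 0.17 (SE 0.14) for Numb, 0.16 (SE 0.13) for Maml1 and 0.12 (SE 0.058) for Psenen. The first 3 of these were thus smaller and Psenen nearly as large, while that of Dlk1 was larger, as given above. The part of RNA quality in these values was not tested.

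**Figure D3:**
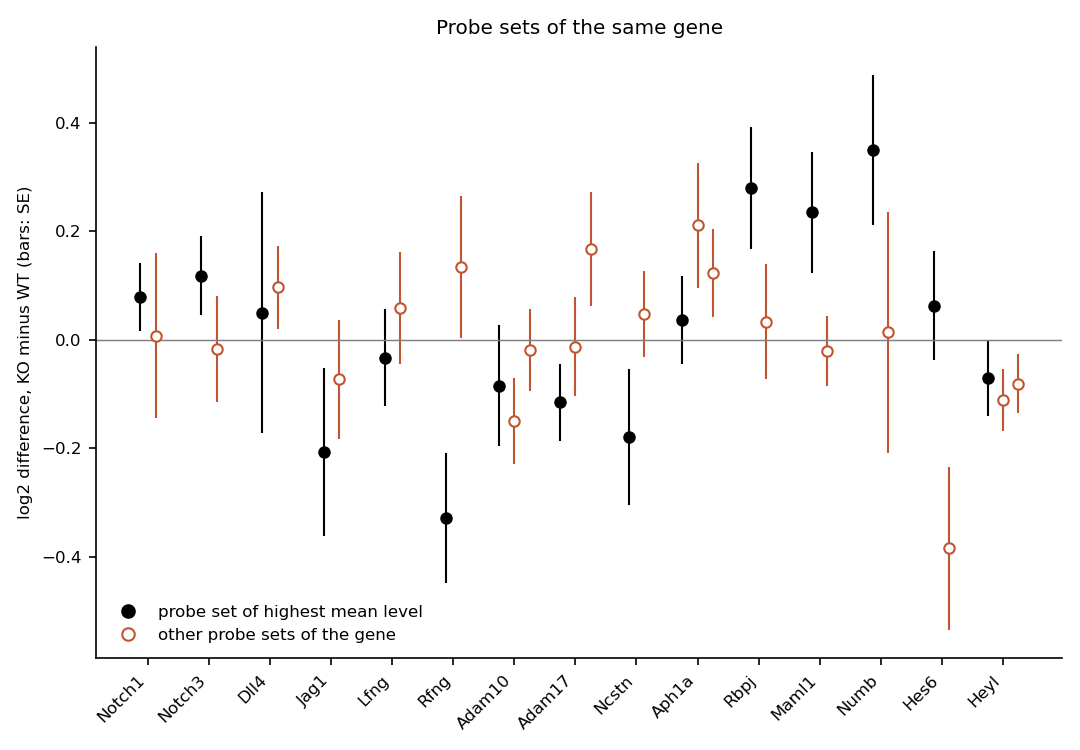
Log2 difference, KO minus WT (y axis, bars SE), for each probe set of the 15 tested genes with more than 1 probe set (x axis), from a fit over all probe sets; black points are the probe sets of highest mean level, used in the text, and open orange points the others. For Notch3, Lfng, Rfng, Adam17, Ncstn and Hes6 probe sets of the same gene lie on opposite sides of 0. For Rbpj, Maml1 and Numb the other probe set lies near 0.

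Hes1, the main Notch target in the crypt, differed between the KO arrays more than between the genotypes. It read 8.26, 8.19, 8.12 and 8.06 in WT against 7.99, 8.60 and 8.66 in KO. KO replicate 1 was the lowest of all 7 arrays, and KO replicates 2 and 3 were the highest. The difference was 0.23 (SE 0.16; limma, adjusted p = 0.565; two-sided exact permutation p = 0.257). In scan batch 2 it was 0.54 (SE 0.082; adjusted p = 0.0807), and in scan batch 1, with its 1 KO array assumed to vary like the others, it was -0.23 (SE 0.10; adjusted p = 0.991). Whether the batches differ was not tested. With the Gapdh measure as covariate the Hes1 difference was 0.016 (SE 0.15).

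The same 2 KO arrays also stood highest on average for goblet and enteroendocrine markers, though not for those of tuft cells. Relative to the mean of all arrays, the 13 goblet cell markers on the array averaged -0.60, 0.064, 0.12 and -0.19 in WT against -0.078, 0.35 and 0.32 in KO, and the 13 enteroendocrine markers -0.11, 0.001, -0.10 and 0.022 in WT against -0.051, 0.062 and 0.18 in KO. Of these, 10 goblet and 9 enteroendocrine markers lay above the filter. The 10 tuft cell markers on the array were highest in WT replicates 3 and 4 (0.079 and 0.048). They averaged 0.029 and -0.020 in KO replicates 2 and 3. KO replicate 2 was also the highest array for epithelial markers (0.23) and for pericyte and smooth muscle markers (0.24). Tff3, the goblet cell trefoil peptide, read 8.96, 11.15, 10.75 and 10.88 in WT against 10.77, 11.54 and 11.85 in KO. The part of secretory cells in the Hes1 values was not tested. Chga and Chgb, granule proteins of enteroendocrine cells, were at 6.73 ± 0.16 and 7.30 ± 0.33 (SD, n = 4) in WT against 6.87 ± 0.15 and 7.80 ± 0.85 (SD, n = 3) in KO. Epcam, the marker used in the sort, was at 11.94 ± 0.05 (SD, n = 4) in WT against 11.94 ± 0.06 (SD, n = 3) in KO, and the epithelial keratin Krt8 at 11.76 ± 0.09 and 11.85 ± 0.05.

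Hes6, which opposes HES1 and is not itself switched on by Notch, gave opposite answers on its 2 probe sets. On the one of highest level it read 11.17, 11.48, 11.26 and 11.28 in WT against 11.16, 11.47 and 11.49 in KO, a difference of 0.063 (SE 0.099) that was 0.020 to 0.21 with 1 array left out. On the other it read 9.43, 9.52, 9.95 and 9.42 in WT against 8.79, 9.50 and 9.50 in KO, a difference of -0.39 (SE 0.15; limma over all probe sets, unadjusted p = 0.0343, adjusted p = 0.516). KO replicate 1 was the lowest array on both.

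Hey1 and Heyl, Notch targets of vessels and other tissues, overlapped between the groups. Hey1 read 8.30, 9.02, 8.42 and 8.61 in WT against 8.56, 8.55 and 8.83 in KO, a difference of 0.065 (SE 0.18). Its WT arrays spanned more than the KO arrays, with WT replicate 2 the highest. Heyl read 5.19 to 5.57 in WT against 5.26 to 5.44 in KO, a difference of -0.070 (SE 0.068) that was -0.16 to -0.015 with 1 array left out. On a further Heyl probe set the KO arrays, at 5.23 to 5.29, lay below the WT arrays, at 5.29 to 5.46, with KO replicate 2 equal to the lowest WT array at this precision (limma over all probe sets, adjusted p = 0.575). Hes2 and Hes3, of the same family, lay under the filter at 5.13 to 5.30 and 5.03 to 5.22 in WT, and at 5.12 to 5.28 and 5.10 to 5.15 in KO.

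Differences were also set beside the arrays they came from. With 1 array left out, the number of members at an unadjusted p under 0.05 ranged from 0, without KO replicate 3, to 7, without WT replicate 2. The share of all genes in the same settings was 5.57% and 18.7%. The number of members was 1 without WT replicate 1, WT replicate 3 or KO replicate 2 (all genes 9.74%, 5.96% and 5.74%). It was 4 without WT replicate 4 (all genes 8.89%) and 6 without KO replicate 1 (19.7%). Leaving out KO replicate 1 raised Hes1 to 0.54 (adjusted p = 0.0948) and Numb to 0.54 (adjusted p = 0.140), and it widened the negative differences of Ncstn to -0.35 and Psen2 to -0.29. When limma gave each array its own weight, 0.297 for KO replicate 1 as the lowest and 3.04 for KO replicate 2 as the highest, 5 members passed an adjusted p of 0.05 among 1370 genes (10.7% of all). These were Numb (0.57, adjusted p = 0.0301), Maml1 (0.40, adjusted p = 0.0400) and Psenen (0.18, adjusted p = 0.0406), higher in KO, and Ncstn (-0.36, adjusted p = 0.0470) and Psen2 (-0.30, adjusted p = 0.0478), lower. Without array weights the limma adjusted p of these 5, in the same order, was 0.420, 0.448, 0.414, 0.578 and 0.471.

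**Figure D4:**
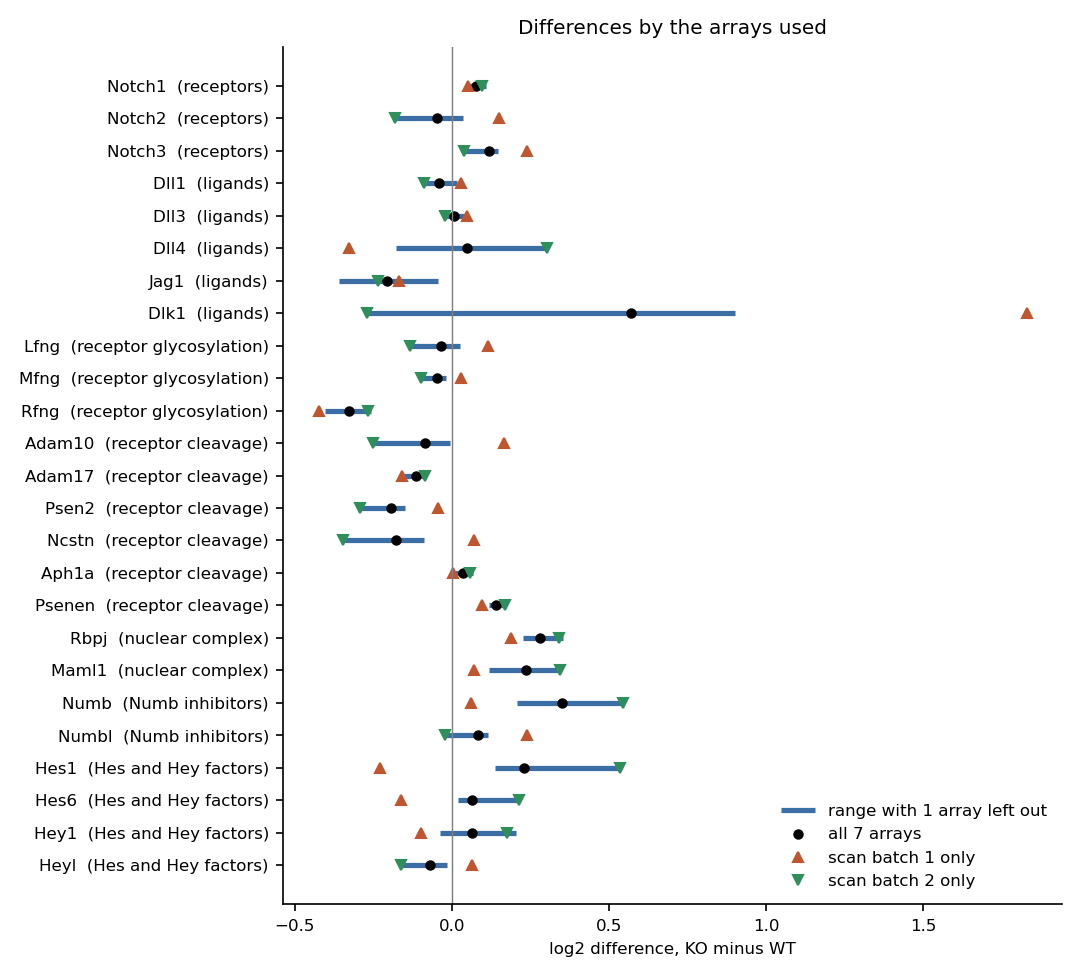
Log2 difference, KO minus WT (x axis), of the 25 tested genes by role (y axis): black points use all 7 arrays, blue bars span the values with 1 array left out, and triangles give scan batch 1 alone (up) and scan batch 2 alone (down). Rfng, Psenen, Rbpj, Maml1 and Numb stay on one side of 0, while Hes1 is at -0.23 in scan batch 1 and 0.54 in scan batch 2 and Dlk1 at 1.83 and -0.27.

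Members also differed in how steady they were, each read on its probe set of highest mean level. The within-group SD was highest for Dlk1 (0.647), Dll4 (0.403), Numb (0.266), Hey1 (0.264) and Hes1 (0.241), which are above 88.5% of tested genes or more. It was lowest for Adam17 (0.0632), Aph1a (0.0650), Psenen (0.0726) and Notch3 (0.0728), at or below the 13.7th percentile. The most variable members thus included ligands and target factors, and the cleavage machinery held both steady members and, in Ncstn (0.182), a variable one. Over the 25 members the median SD was 0.161, against 0.133 for all genes.

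Further genes of the pathway gave counts near the background. Of 47 listed ligases, sugar transferases, co-repressors and co-activators, 42 were on the array and 40 were tested. In limma 0 passed the adjusted threshold, 2 were higher and 1 lower at an unadjusted p under 0.05 (7.5% against 11.4% of all genes), and the median difference was 0.013. Kat2b, an acetyltransferase recruited to the active complex, read 6.10, 5.98, 5.96 and 5.91 in WT against 6.41, 6.36 and 6.07 in KO, a difference of 0.32 (SE 0.087; adjusted p = 0.388). Sap30, a subunit of a histone deacetylase co-repressor, differed by 0.54 (SE 0.19) with overlapping arrays. The Sap30 difference was -0.044 in scan batch 1, with its 1 KO array, and 0.93 in scan batch 2. Mib2, a ligase that prepares ligands for pulling on Notch, lay lower in every KO array, at 8.56, 8.42 and 8.34 against 8.88, 8.65, 8.64 and 8.68 in WT, a difference of -0.25 (SE 0.090; adjusted p = 0.414). Tle4, a Groucho co-repressor that HES proteins recruit, lay higher in every KO array, from 7.86 to 8.02 against 7.37 to 7.86 in WT (0.32, SE 0.14).

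Of 8 genes that HES1 is known to restrain, 7 were on the array and 5 were tested, with 0 past the adjusted threshold and 1, Atoh1, at an unadjusted p under 0.05 (20% against 11.4% of all genes). The other 4 had negative differences. Atoh1 read 6.45, 7.27, 6.70 and 6.09 in WT against 6.94, 7.30 and 7.47 in KO. KO replicates 2 and 3 were thus the highest arrays for both Hes1 and Atoh1. The difference of Atoh1 was 0.63 (SE 0.27; limma, adjusted p = 0.437). It was 0.080 in scan batch 1, with its 1 KO array, and 0.99 in scan batch 2. Cdkn1c, an inhibitor of cell cycle kinases, read 10.67, 10.05, 9.83 and 9.87 in WT against 10.03, 9.84 and 9.85 in KO, with WT replicate 1 apart. Spdef, a goblet cell factor downstream of Atoh1, and Cdkn1b, another kinase inhibitor, differed by -0.065 (SE 0.16) and -0.023 (SE 0.090).

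Marker lists of other cells were read in the same arrays. Leukocyte markers, 14 on the array and 11 above the filter, averaged 5.89 to 6.00 in WT against 5.84 to 6.06 in KO, and the common leukocyte marker Ptprc lay under the filter level in every array (4.02 to 4.25). The T cell marker Cd3e did so in 6 arrays, and read 5.33 in KO replicate 3. Fibroblast markers, 10 on the array and 6 above the filter, averaged 6.06 to 6.63 in WT against 6.07 to 6.59 in KO, highest in WT replicate 3 and KO replicate 2. Col1a1, the fibroblast collagen, was at 7.94 ± 0.47 (SD, n = 4) in WT against 7.83 ± 0.53 (SD, n = 3) in KO, and Col1a2 lay under the filter. The stem cell markers Lgr5 and Ascl2 were at 9.91 ± 0.29 and 8.27 ± 0.09 (SD, n = 4) in WT against 9.79 ± 0.29 and 8.36 ± 0.07 (SD, n = 3) in KO. The tuft cell kinase Dclk1 was at 5.63 ± 0.04 (SD, n = 4) in WT against 5.58 ± 0.04 (SD, n = 3) in KO, and the tuft cell channel Trpm5 lay under the filter.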

How the data were processed

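The authors deposited log2 values, 1 per probe set and array, which they computed with RMA (background correction, joint normalization and summary of probes), per the submitters' processing notes. The sources used here give no RMA version, filter or batch correction. Of 45141 probe sets, 104 were controls, 551 had several symbols and 15588 none. In 23 of the 52 member probe sets at least 2 arrays shared a value, as RMA's medians allow. For each gene the probe set of highest mean was kept and the lowest 25% left out. KO was compared with WT over all 12822 genes in limma 3.58.1 (R 4.3.3), with scan batch as covariate, a variance trend, two-sided tests and Benjamini-Hochberg adjustment, which left 4 residual degrees of freedom. Exact permutation used 35 splits. Group means and SDs come from the values, differences from the fit. The fit was tested on simulated data. Alternatives changed 1 choice at a time (scan batch, array weights, variance trend, probe set per gene, filter, centring, arrays used), and a Gapdh covariate was added after the data were seen. Named were all members, the 4 genes of smallest p in each further pathway list, the first 2 of each marker list and Mex3a. Muc2 falls under that rule but had no probe set with 1 symbol. Members and lists were chosen with earlier results of these data known. Promoter sequences are RefSeq's (GRCm38.p6).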

Additional observations from a re-analysis of the deposited data

Results flagged for a closer look

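A test for a single array far from its group was made in the 4 WT arrays for each of the 31 genes on the array, and marked 2, where chance marks about 1 in 20. For Rbpj, WT replicate 2 read 7.88, against 7.51 in the nearest WT array. For Lfng, WT replicate 3 read 9.16, against 9.01 in the nearest. KO groups of 3 arrays were not tested this way.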

How the results depend on the processing

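Of the 25 tested genes, 8 kept the sign of their difference in all 18 alternatives: Notch1, Jag1, Rfng, Psen2, Psenen, Rbpj, Maml1 and Numb. Notch3 kept it in the 16 that tested it, and its other probe set gave -0.017. The number of genes called was 0 in all but 3 settings, with 1370 under array weights (5 of them members: Psen2 -0.30, Ncstn -0.36, Psenen 0.18, Maml1 0.40 and Numb 0.57) and 0 to 2 with 1 array left out, where no member was called. The number of members at an unadjusted p under 0.05, 4 over all arrays (all genes 11.4%), was 1 with no term for scan batch (all genes 7.18%), 12 with array weights (31.8%), 1 when probe sets were averaged (11.0%), 8 in scan batch 2 (24.4%), 1 in scan batch 1 (3.40%), 2 with the Gapdh covariate (7.86%) and 0 to 7 with 1 array left out. These were not always among the 4: the 1 in scan batch 1 was Dlk1, and the 2 with the Gapdh covariate were Dlk1 and Hes6. The median member difference turned to -0.023 with array weights and -0.024 in scan batch 2, and was -0.024 to 0.067 with 1 array left out. Signs turned in scan batch 1 for Notch2 (0.15), Dll1 (0.028), Dll4 (-0.33), Lfng (0.12), Mfng (0.029), Adam10 (0.17), Ncstn (0.071), Hes1 (-0.23), Hes6 (-0.16), Hey1 (-0.099) and Heyl (0.065). In scan batch 2 they turned for Dll3 (-0.024), Dlk1 (-0.27) and Numbl (-0.023), and with array weights for Dll4 (-0.023) and Dlk1 (-0.16). With the Gapdh covariate, added after the data were seen, they turned for Notch2 (0.12), Dll3 (-0.013), Dll4 (-0.25), Lfng (0.030), Adam10 (0.10), Ncstn (0.035), Aph1a (-0.014), Hes6 (-0.12) and Hey1 (-0.21). Averaging probe sets turned Lfng (0.012), Adam17 (0.013) and Hes6 (-0.16), and the probe set of largest variance Lfng (0.058), Adam17 (0.17) and Hes6 (-0.39). With 1 array left out, 8 genes crossed 0: Notch2 (-0.18 to 0.037), Dll1 (-0.089 to 0.016), Dll3 (-0.024 to 0.042), Dll4 (-0.18 to 0.30), Dlk1 (-0.27 to 0.90), Lfng (-0.13 to 0.027), Numbl (-0.023 to 0.11) and Hey1 (-0.037 to 0.20). The cause of these changes was not tested. No paired analysis was possible because the labels give no replicate numbers shared between the groups. The replicate numbers used here only tell the arrays of a group apart and pair none between groups. Genes near background, among them 6 members, limit what the arrays can show.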
